A study of Mus musculus with 2 samples.

Results

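The mitochondrial respiratory chain is built from proteins of both genomes of the cell, and the genes described here are those on the nuclear side. They were taken by symbol from the gene columns of the count tables: Ndufa, Ndufb, Ndufc, Ndufs and Ndufv genes with a number, Sdha to Sdhd, Uqcr genes, Cox4 to Cox8 genes and Atp5 genes, without Ndufaf assembly factors and without names marked as pseudogenes or related sequences. It found 84 of 38458 gene columns, of which 37 belonged by name to complex I, 4 to complex II, 8 to complex III, 18 to complex IV and 17 to complex V. Of these, 78 had 50 or more unique molecular identifiers (UMIs, which count captured RNA molecules) over both cultures, and the other 6 (Cox4i2, Cox6a2, Cox7b2, Cox8b, Cox8c and Ndufa4l2) did not.

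Symbols are older than the current view of the complexes in a few places. Ndufa4 is counted here under complex I by its name, although its protein is found with cytochrome c oxidase. Cox7a2l encodes a factor that holds complexes III and IV together in supercomplexes, Atp5s encodes coupling factor B, and Atp5sl, now named Dmac2, encodes a complex I assembly factor. Ndufab1, the acyl carrier protein subunit of complex I, and Cyc1, the haem subunit of complex III, have symbols that the rule does not take and are given with the partner genes.

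Single-cell RNA was counted by inDrops, a droplet method, in mouse embryonic stem cells (mESCs) without Terc, whose RNA serves telomerase as its template. All cells came from the single line DKO741, derived from E14 mESCs by targeting both Terc alleles, with Cre given by adenovirus to remove the selection gene. The sample labels give passage numbers, which the paper gives as population doublings (PD). PD100 was the culture labelled passage 100, a stage named pre-ALT, ahead of alternative lengthening of telomeres (ALT). PD800 was the post-ALT culture labelled passage 800, which survived without telomerase. Both were untreated, and cells were kept on fibroblast feeders but used feeder-free. Each group was 1 library of 1 clone, so no difference below has a replicate check and none was tested; intervals are exact 95% intervals that cover counting error only.

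The PD100 library held 814 cells of 1000 or more UMIs with at most 20% of UMIs from mitochondrial genes (1826233 UMIs, median 2151 per cell), and the PD800 library 900 cells (2580963 UMIs, median 2701.5 per cell). In both libraries 0 Terc UMIs were counted, which is no check of the genotype because both carry the deletion. The 9 stem cell markers were all detected in both (21613 and 31980 UMIs), and 7 fibroblast markers summed to 24 and 32 UMIs. Markers of extraembryonic endoderm were higher in PD100 (1896 UMIs over 13 genes, against 365), and 111 PD100 and 27 PD800 cells held 3 or more of their UMIs. The median share of mitochondrial UMIs was 1.23% in PD100 and 4.42% in PD800. The libraries shared 21 barcode sequences, 8 of them among the cells kept.

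Electrons from NADH enter the chain at complex I and those from succinate at complex II. Both pass them through ubiquinone to complex III, then through cytochrome c to complex IV, which reduces oxygen. Complexes I, III and IV pump protons, and complex V, the ATP synthase, makes ATP as the protons return. Complexes I, III, IV and V also need subunits encoded in mitochondrial DNA, whereas complex II is nuclear throughout. Mouse embryonic stem cells draw on both glycolysis and respiration.

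Promoters are shown first for the members at either end of the range of ratios described below. RefSeq promoters (build GRCm38.p6, from 250 bases before to 50 bases after the start, printed 5′ to 3′ on the gene's strand) were found for 69 of the 84 members, 75 promoters in all. Uqcrb had no entry. Capitals mark a match to 1 of 4 searched words on either strand: CGCATGCG (core of the NRF1 motif, whose reverse complement is the same), CCGGAAGT (ETS motif that GABP binds), AAGATGGC (YY1) and AAGGTCA (site of oestrogen-related receptors, ERR). NRF1, GABP, YY1 and the ERR proteins are known regulators of nuclear respiratory genes. No word contains another. The 4 members with an entry and the highest PD800 to PD100 ratio had these promoters.
Cox6b2, chr7:4753045-4753344, minus strand: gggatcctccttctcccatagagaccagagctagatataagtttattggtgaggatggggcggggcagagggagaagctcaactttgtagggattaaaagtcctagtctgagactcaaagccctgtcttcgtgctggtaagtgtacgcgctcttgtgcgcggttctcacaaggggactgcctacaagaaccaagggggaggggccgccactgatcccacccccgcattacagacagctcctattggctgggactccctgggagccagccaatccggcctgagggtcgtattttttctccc
Cox7b, chrX:106015450-106015749, plus strand: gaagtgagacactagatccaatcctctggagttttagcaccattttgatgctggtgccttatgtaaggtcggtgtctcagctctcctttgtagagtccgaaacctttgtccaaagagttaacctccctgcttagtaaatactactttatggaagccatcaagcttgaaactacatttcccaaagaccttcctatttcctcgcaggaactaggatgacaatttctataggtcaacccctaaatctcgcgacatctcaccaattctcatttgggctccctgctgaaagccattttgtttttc
Cox7a1, chr7:30183921-30184220, plus strand: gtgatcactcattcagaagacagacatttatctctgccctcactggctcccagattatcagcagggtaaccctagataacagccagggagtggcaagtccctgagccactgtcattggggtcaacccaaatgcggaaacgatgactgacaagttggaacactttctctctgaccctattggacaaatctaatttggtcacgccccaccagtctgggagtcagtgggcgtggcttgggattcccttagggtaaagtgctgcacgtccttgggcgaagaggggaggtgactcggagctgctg
Atp5e, chr2:174464052-174464351, minus strand: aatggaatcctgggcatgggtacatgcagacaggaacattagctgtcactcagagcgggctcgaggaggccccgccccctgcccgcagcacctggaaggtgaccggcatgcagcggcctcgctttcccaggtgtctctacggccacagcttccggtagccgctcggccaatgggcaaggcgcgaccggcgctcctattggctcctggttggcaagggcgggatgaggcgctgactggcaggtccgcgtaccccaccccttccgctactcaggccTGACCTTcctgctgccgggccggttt
Below are 3 of the 4 members with the lowest ratio, leaving out Atp5sl, which has a pair of overlapping promoters.
Cox7a2l, chr17:83514284-83514583, minus strand: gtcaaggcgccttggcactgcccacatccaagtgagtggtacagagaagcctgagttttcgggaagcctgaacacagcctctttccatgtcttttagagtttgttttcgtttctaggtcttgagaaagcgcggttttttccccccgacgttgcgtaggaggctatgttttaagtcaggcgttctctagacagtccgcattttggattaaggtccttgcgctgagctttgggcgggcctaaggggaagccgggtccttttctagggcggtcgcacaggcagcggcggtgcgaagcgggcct
Ndufv1, chr19:4012706-4013005, minus strand: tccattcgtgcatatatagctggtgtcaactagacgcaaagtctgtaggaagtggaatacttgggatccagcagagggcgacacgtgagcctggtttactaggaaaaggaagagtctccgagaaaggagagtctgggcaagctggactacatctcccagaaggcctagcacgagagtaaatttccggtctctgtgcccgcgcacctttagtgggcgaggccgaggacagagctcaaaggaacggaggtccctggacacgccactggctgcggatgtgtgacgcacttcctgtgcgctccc
Uqcrc1, chr9:108936398-108936697, plus strand: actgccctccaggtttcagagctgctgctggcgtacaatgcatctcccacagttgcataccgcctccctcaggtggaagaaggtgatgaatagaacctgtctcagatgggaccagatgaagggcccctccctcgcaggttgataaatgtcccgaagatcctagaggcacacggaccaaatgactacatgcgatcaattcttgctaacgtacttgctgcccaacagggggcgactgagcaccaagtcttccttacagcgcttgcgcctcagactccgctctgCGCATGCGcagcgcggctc
The promoters of Cox6b2, Cox7b and Cox7a1 held 10, 5 and 7 CpG dinucleotides, below the median of 19 over member promoters (7 over all 32851 promoters of the table), and that of Atp5e held 22. Those of Cox7a2l, Ndufv1 and Uqcrc1 held 19, 16 and 15.

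Over all members, the NRF1 core was in 9 of 75 promoters (12% against 1.87% of all promoters of the same length), YY1 in 12 (16% against 2.75%), the ERR site in 8 (10.7% against 4.72%) and the ETS word in 5 (6.67% against 3.89%). Together 30 promoters (40%, against 12.5%) held a match to 1 or more of the words. Member promoters also held more CpG dinucleotides, as given above, and the part of base composition in these shares was not tested. Each word occurred in members on both sides of 0. Members with the NRF1 core had a median log2 ratio of 0.67 (9 genes, from -0.72 for Uqcrc1 to 1.15 for Atp5k) against 0.31 in the 58 matched members without it. With the ERR site the median was 0.60 (8 genes, from -0.40 for Sdhd to 1.83 for Atp5e) against 0.25 in 59. For YY1 it was 0.46 (11 genes) against 0.29 in 56, and for the ETS word 0.22 (5 genes) against 0.33 in 62. Across the 67 members with a promoter and a ratio, the CpG count had a Spearman rho of -0.18 with the ratio.

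Levels are given as UMIs scaled to a library total of 1000000 (CPM), and ratios as log2 of PD800 over PD100. Summed over members, transcripts of the nuclear respiratory chain were higher in the post-ALT culture. They made up 34858 CPM in PD100 (34588 to 35130, from 63659 UMIs) and 41135 CPM in PD800 (40888 to 41384, from 106169 UMIs), a log2 ratio of 0.24 (0.22 to 0.25) or 1.18-fold. The intervals of the summed levels did not overlap. Most genes lay on the other side of 0: the median log2 ratio of the 6984 genes with 50 or more UMIs was -0.34, which is referred to below as the shift. The median of the 78 members was 0.29, and 66 of 78 lay above the shift.

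Few members were lower by 2-fold. By a fixed rule of 2-fold, 11 of 78 members were higher in PD800 (14.1%, against a background of 9.22% of all genes), and 1 member was lower (1.28%, against 16.9%). By any amount, 48 of 78 were higher (61.5%, against 33.4%). Relative to the shift, 18 members were 2-fold or more higher (23.1%, against 13.9%) and 0 were lower (against 7.79%). With 1 library per group these counts follow a rule of size and carry no test.

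**Figure D1:**
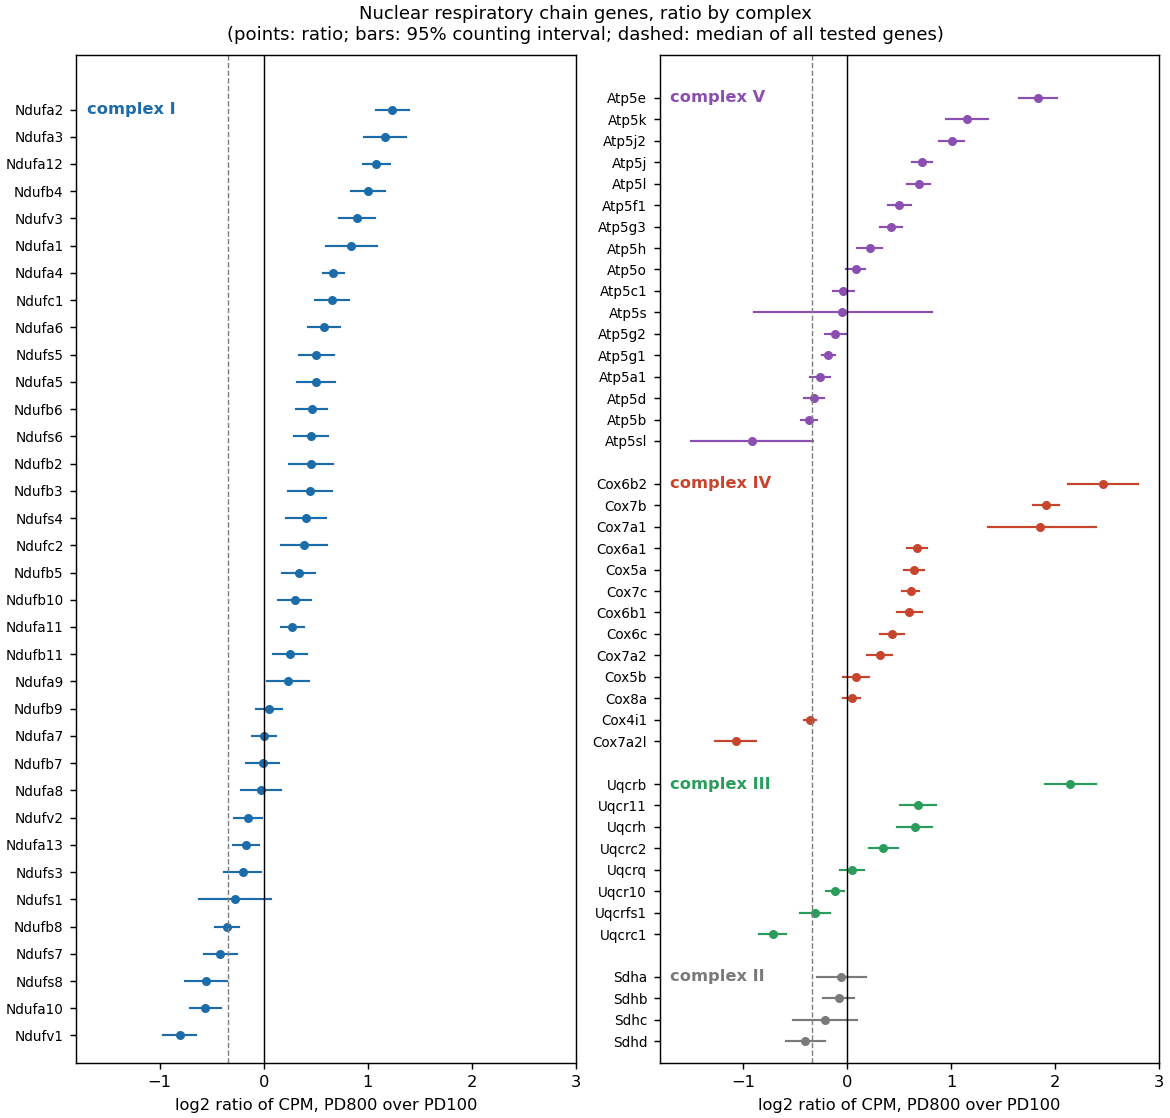
Log2 ratio of CPM (PD800 over PD100, x axis) of 77 members with 50 or more UMIs, by complex, with exact 95% counting intervals; the solid line is 0 and the dashed line the median of all genes at -0.34. Complex IV holds the highest value (Cox6b2, 2.45) and the lowest (Cox7a2l, -1.07), and the 4 genes of complex II lie between -0.40 and -0.05, where another scaling turns the sign of Sdha, Sdhb and Sdhc.

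Complex I takes electrons from NADH and is the largest of the complexes. Its members summed to 10834 CPM in PD100 and 13016 CPM in PD800, a log2 ratio of 0.26 (0.24 to 0.29). Of 36 members with 50 or more UMIs, 23 lay above 0 and 4 were 2-fold or more higher (11.1%, near the 9.22% of all genes). The 4 were accessory subunits. Ndufa2 was at 241 CPM in PD100 and 568 CPM in PD800 (440 and 1467 UMIs, log2 ratio 1.24, 1.08 to 1.40). Ndufa3 went from 142 to 319 CPM (260 and 824 UMIs, 1.17, 0.96 to 1.37). Ndufa12 was at 350 and 741 CPM (639 and 1913 UMIs, 1.08), and Ndufb4 at 229 and 460 CPM (418 and 1186 UMIs, 1.01). In each case the PD800 level lay above the interval of the PD100 level.

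The following core subunits of complex I lay below 0, but not all of them below the shift. Ndufv1, which carries the flavin that accepts electrons from NADH, was at 381 CPM in PD100 and 218 CPM in PD800 (696 and 562 UMIs, log2 ratio -0.81, -0.97 to -0.65). It was lower also relative to the shift, at -0.47. The iron-sulfur subunit Ndufs1 was at 72.8 and 60.1 CPM (133 and 155 UMIs, -0.28, -0.62 to 0.07), an interval that holds both 0 and the shift. The core subunit Ndufs8 was at -0.56 and Ndufv2 at -0.15, with Ndufs7 at -0.42 and Ndufs3 at -0.20; relative to the shift, Ndufv2 and Ndufs3 lay above 0 at 0.19 and 0.14. Ndufs3 shares 64.5% of the 31-base words at its transcript end with the pseudogene Gm12251, so its count is uncertain.

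Grouped by module, the 10 genes of the N module, which holds the NADH site, summed to a log2 ratio of 0.40 (0.36 to 0.45). The 6 genes of the Q module, which passes electrons to ubiquinone, summed to -0.18 (-0.25 to -0.11), which is 0.16 relative to the shift. The 19 genes of the membrane arm summed to 0.23 (0.20 to 0.27). Within the N module the accessory genes Ndufa2, Ndufa12, Ndufv3 (0.90), Ndufa6 (0.58) and Ndufs6 (0.46) lay above 0, Ndufa7 lay at 0 (-0.0007), and Ndufv1, Ndufs1 and Ndufv2 lay below it. Not all accessory genes were higher: in the membrane arm Ndufa10 (-0.56), Ndufb8 (-0.35) and Ndufa13 (-0.17) lay below 0, the last of these above the shift. Within the Q module, the accessory genes Ndufa5 (0.50) and Ndufa9 (0.23) lay above 0 and Ndufs3, Ndufs7 and Ndufs8 below it.

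Complex II oxidises succinate and is also a TCA cycle enzyme. It was the only complex whose sum was lower in PD800, at 844 CPM in PD100 and 745 CPM in PD800, a log2 ratio of -0.18 (-0.28 to -0.08), but relative to the shift the value was 0.16 and the direction turned. The flavoprotein gene Sdha was at 141 and 136 CPM (258 and 351 UMIs, -0.05, -0.29 to 0.18), and the iron-sulfur gene Sdhb at 364 and 344 CPM (665 and 888 UMIs, -0.08, -0.23 to 0.07). Neither ratio could be told from 0 by counting error. The membrane anchor genes Sdhc and Sdhd lay at -0.21 (-0.52 to 0.10) and -0.40 (-0.59 to -0.22), with Sdhd at 249 and 188 CPM. All 4 genes were below 0 and none was 2-fold lower, and relative to the shift Sdha, Sdhb and Sdhc lay above 0.

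Complex III passes electrons from ubiquinol to cytochrome c. Its sum was 3444 CPM in PD100 and 3759 CPM in PD800, a log2 ratio of 0.13 (0.08 to 0.17), with 5 of 8 genes above 0. Cyc1 is not in this sum because of its symbol, and with it added the values were 4336 and 4290 CPM (-0.02, -0.06 to 0.03), so that no difference could be told from counting error. Uqcrb, a small subunit next to the ubiquinone site, was at 88.7 CPM in PD100 and 392 CPM in PD800 (162 and 1012 UMIs, log2 ratio 2.14, 1.90 to 2.39), the largest ratio in this complex. It was detected in 127 of 814 and 528 of 900 cells. With each cell thinned to 1000 UMIs, a depth that every cell reached, the expected shares of cells with a Uqcrb UMI were 7.98% and 31.4%. These cultures hold no cell type that should lack the gene, so the part of free RNA in such shares was not tested. Uqcr11 (219.6 and 351 CPM, 0.68) and Uqcrh (0.65) followed it.

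The core of complex III split. Uqcrc1 was at 553 CPM in PD100 and 336 CPM in PD800 (1009 and 868 UMIs, log2 ratio -0.72, -0.85 to -0.58). Its partner core protein Uqcrc2 went the other way, from 362 to 460 CPM (661 and 1187 UMIs, 0.35, 0.21 to 0.48). The intervals of the pair did not overlap, although their proteins sit in the complex in equal number. The Rieske iron-sulfur protein Uqcrfs1 was at 391 and 316 CPM (-0.31, -0.45 to -0.16), close to the shift. Among small subunits, Uqcr10 (-0.12) and Uqcrq (0.05) stood near 0.

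Complex IV, cytochrome c oxidase, had the largest summed difference. Its members summed to 8480 CPM in PD100 and 10963 CPM in PD800, a log2 ratio of 0.37 (0.34 to 0.40), and 11 of its 13 members with 50 or more UMIs lay above 0. Cox7b, a small subunit, was at 365 CPM in PD100 and 1372 CPM in PD800 (667 and 3542 UMIs, 1.91, 1.79 to 2.03). It was detected in 392 and 827 cells, and thinned to 1000 UMIs the shares were 28.7% and 71.3%. Cox5a, which binds next to the catalytic core, was at 703 and 1098 CPM (0.64, 0.55 to 0.74), Cox6a1 at 703 and 1116 CPM (0.67), and Cox7c at 897 and 1368 CPM (0.61). Cox4i1, an early-assembling subunit, was at 2356 and 1836 CPM (4302 and 4739 UMIs, -0.36, -0.42 to -0.30), which is the shift.

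Cox7a2l was the 1 member 2-fold or more lower in PD800, at 292 CPM in PD100 and 139 CPM in PD800 (533 and 358 UMIs, log2 ratio -1.07, -1.27 to -0.88). Its UMIs were found in 324 PD100 and 237 PD800 cells. Relative to the shift its ratio was -0.73, less than 2-fold.

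Several subunits of complex IV have isoform genes used by particular tissues, and among these Cox6b2 had the largest ratio of all 78 members. Cox6b2, known as the testis form of subunit 6B, was at 46.5 CPM in PD100 and 255 CPM in PD800 (85 and 658 UMIs, log2 ratio 2.45, 2.13 to 2.80). Its UMIs were in 61 and 375 cells, and thinned to 1000 UMIs in 4.32% and 20.9% of cells. The ubiquitous Cox6b1 was at 452 and 685 CPM (0.60). Cox6b2 thus made up 9.33% of the UMIs of the pair in PD100 (7.52% to 11.4%) and 27.1% in PD800 (25.4% to 29.0%). Its share of the pair was larger in PD800, with intervals that did not overlap.

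Cox7a1, the heart and muscle form of subunit 7A, was at 21.4 CPM in PD100 and 77.1 CPM in PD800 (39 and 199 UMIs, 1.85, 1.35 to 2.39). Against Cox7a2, the form of most tissues (487 and 606 CPM, 0.31), its share of the pair was 4.20% in PD100 (3.00% to 5.69%) and 11.3% in PD800 (9.85% to 12.9%). Cox8c, a testis form of subunit 8, was at 0 UMIs in PD100, against 19 UMIs in 15 cells of PD800. Set against a floor of 3 counts in the PD100 library (1.64 CPM), that is 4.48-fold higher, and the exact interval of the ratio begins at 3.30-fold. Cox7b2 had 0 and 8 UMIs, 1.89-fold higher by the same floor, with an exact interval that begins at 1.21-fold.

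The other tissue forms were near or at 0. Cox4i2, the lung form, had 1 UMI in each library, Cox6a2, the muscle form, 0 and 1, and Cox8b, another muscle form, 0 and 0 UMIs. For Cox8b the exact binomial interval allows a share of up to 0.176% of the Cox8 UMIs in PD100 and 0.120% in PD800. Ndufa4l2, a relative of Ndufa4 known to respond to low oxygen, had 4 and 6 UMIs, whereas Ndufa4 itself was at 660 and 1050 CPM (0.67, 0.57 to 0.77). Of the tissue forms, Cox6b2 and Cox7a1 were higher in PD800, but Cox7a1 reached 50 UMIs only through its PD800 count (39 and 199 UMIs). Cox8c and Cox7b2 lay under that minimum and had UMIs in PD800 only, so they could show no other direction. The counts of Cox4i2, Cox6a2 and Cox8b show no direction.

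**Figure D2:**
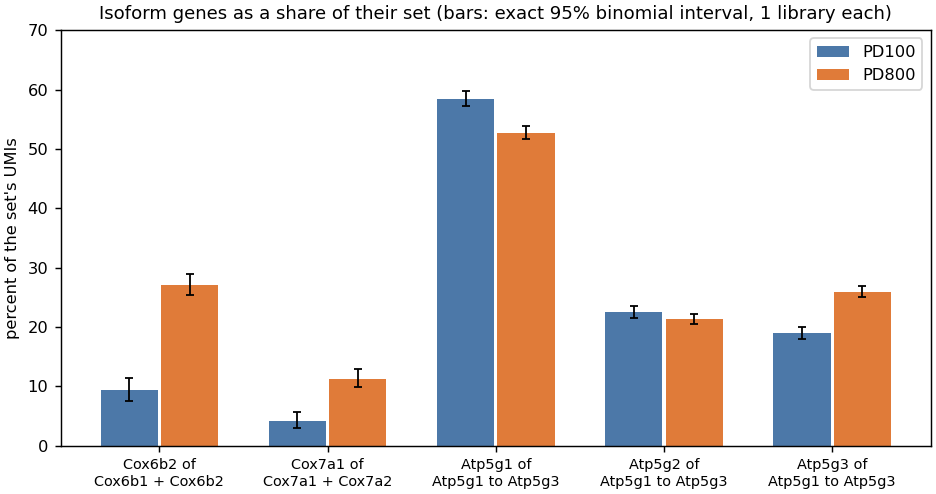
Share of an isoform set's UMIs (y axis, percent) taken by each gene in PD100 (814 cells) and PD800 (900 cells), 1 library each, with exact 95% binomial intervals. The Cox6b2 share was 9.33% and 27.1%, the Cox7a1 share 4.20% and 11.3%, and within the c-ring genes the Atp5g3 share was 19.0% and 26.0%.

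Complex V joins a catalytic F1 head to a membrane rotor and a peripheral stalk. Its members summed to 11257 CPM in PD100 and 12652 CPM in PD800, a log2 ratio of 0.17 (0.14 to 0.19), and 9 of 17 lay above 0. The membrane accessory genes Atp5k, Atp5j2 and Atp5l, whose proteins sit at the contact between paired synthases, summed to 1074 and 1982 CPM (0.88, 0.81 to 0.96). Atp5k was at 148 and 327 CPM (270 and 845 UMIs, 1.15, 0.95 to 1.35) and Atp5j2 at 415 and 832 CPM (757 and 2148 UMIs, 1.01). Atp5l shares 59.4% of its end words with Gm10221. The 4 peripheral stalk genes summed to 0.39 (0.34 to 0.44), from Atp5o at 0.08 to Atp5j at 0.72. Among them Atp5h shares 68.9% of its end words with Gm10250, so its count is uncertain.

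Of the F1 head, the catalytic and structural genes Atp5b (1553 and 1204 CPM, -0.37, -0.44 to -0.29), Atp5d (868 and 697 CPM, -0.32) and Atp5a1 (837 and 699 CPM, -0.26, -0.36 to -0.16) were below 0 and within 0.1 of the shift, and Atp5c1 was at -0.04. Atp5e, the smallest subunit of the head, was at 163 CPM in PD100 and 580 CPM in PD800 (298 and 1497 UMIs, 1.83, 1.65 to 2.01). It was found in 237 and 659 cells, or 15.0% and 42.6% after thinning to 1000 UMIs. The head as a sum stood at -0.09 (-0.14 to -0.05), which is 0.25 relative to the shift.

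The c-ring protein is encoded by 3 genes that give the same mature protein. Together they stood at 3317 and 3243 CPM (log2 ratio -0.03, -0.08 to 0.02), but their shares of the sum differed. Atp5g1 was at 1940 and 1710 CPM (-0.18), a share of 58.5% (57.2% to 59.7%) and 52.7% (51.7% to 53.8%). Atp5g3 was at 629 and 842 CPM (0.42), a share of 19.0% and 26.0%, also with intervals that did not overlap. Atp5g2 was at 748 and 691 CPM (-0.11) with overlapping intervals of its share, but its transcript end is 99.1% shared with Gm10175, so its count is uncertain. Atp5s was low (22 and 30 UMIs, -0.05, -0.89 to 0.81). Atp5sl, with 60 and 45 UMIs, had a ratio of -0.91 (-1.50 to -0.33).

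Across complexes, the members with a high ratio encoded small proteins. Lengths were those of the GENCODE M21 annotation, available for 77 of the 78 members (Atp5sl has no entry there under that symbol). Of the 20 members of 100 amino acids or fewer, 19 lay above 0 and 8 were 2-fold or more higher, with a median log2 ratio of 0.67. Of other coding genes of that length, 63.5% lay above 0 and 22.9% were 2-fold or more higher. The 37 members of 101 to 200 amino acids had a median of 0.30, the 11 of 201 to 400 amino acids -0.15, and the 9 longer ones -0.28. Of other coding genes, 29.1% of those with 201 to 400 amino acids and 27.1% of longer ones lay above 0. Of the 20 members longer than 200 amino acids, 5 lay above 0, a similar share. Exceptions were Uqcr10 (64 amino acids, -0.12) among the short, Cox7a2l (111 amino acids, -1.07), and Ndufv3 (468 amino acids for the annotated main form, 0.90) and Uqcrc2 (453 amino acids, 0.35) among the long.

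The same order was present outside the members. Other coding genes had medians of 0.35 (170 genes of 100 amino acids or fewer), -0.10 (955), -0.38 (2117) and -0.47 (3217) in the same classes, so the members lay higher in each class by 0.19 to 0.40. The Spearman rho between protein length and log2 ratio was -0.65 over the 77 members and -0.13 over 6459 other coding genes. With the length of the annotated transcript it was -0.56 and -0.02, and with transcript GC content -0.19 and -0.23. The members encode shorter proteins (median 141 amino acids, against 399 in the others), so the rho values of the sets cover unlike ranges of length. These correlations are across genes of the same 2 libraries and genes are not independent of each other. The part of transcript length in the ratios was not tested.

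**Figure D3:**
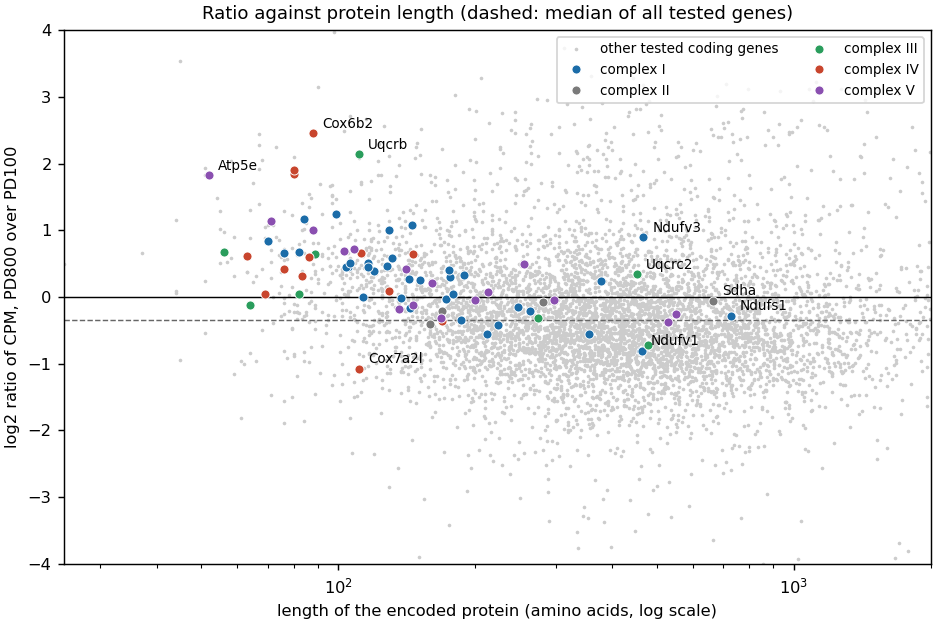
Log2 ratio of CPM (PD800 over PD100, y axis) against the length of the encoded protein (x axis, log scale) for members, coloured by complex, and other coding genes with 50 or more UMIs (grey, shown from -4 to 4 and up to 2000 amino acids). Members of 100 amino acids or fewer had a median of 0.67 and those over 400 a median of -0.28, around the dashed median of all genes at -0.34.

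The 77 members with a position are spread over 19 chromosomes, and genes near them were read as a local background. The median of the 10 nearest genes on each side that had 50 or more UMIs was taken for each of 77 members. Of these, 69 lay above their neighbours' median and 8 below, with a median difference of 0.55. The same count was not made for all genes. The neighbours' medians had a middle value of -0.32, near the shift of -0.34, and 66 of 78 members lay above the shift. The count therefore largely repeats that difference and is no separate result about position. The neighbours of Cox7b (chrX:106015700-106022450), Ndufa12 and Atp5e (chr2:174461072-174464105) had medians of 0.68, 0.68 and 0.53, so these genes lie among genes that were also higher. In contrast, neighbours of Uqcrb (chr13:66900617-66905378), Cox6b2 (chr7:4751792-4753094) and Cox7a1 (chr7:30184144-30186078) had medians of -0.29, -0.42 and -0.22. Cox7a2l (chr17:83501918-83517330) and Cox4i1, at -1.07 and -0.36, lay among neighbours at -1.29 and -1.23, and so were above them. Uqcrc2, whose partner Uqcrc1 was lower, had neighbours at 0.54. The Spearman rho between a member's ratio and that of its neighbours was 0.46 over 77 members, and the part of genome position in the ratios was not tested. Compared with PD100, the paper reports copy-number changes near chromosome ends in PD800 cells. Copy number was not measured here, and its part in the ratios was not tested.

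Within single cells the members' summed share was higher in most PD800 cells. The median share of a cell's UMIs was 3.44% in PD100 (quartiles 3.11% and 3.89%) and 4.10% in PD800 (3.73% and 4.46%), from medians of 74 and 110 member UMIs per cell. Of the PD800 cells, 88.6% lay above the PD100 median and 4.56% below its lower quartile. The SD over cells was 0.609 percentage points in PD100 and 0.593 in PD800. Counting alone would give an SD of 0.414 and 0.410, and SDs do not add up as parts of a whole. The difference was present at every depth: PD100 cells of 1006 to 1792, 1794 to 2475 and 2476 to 5524 UMIs had medians of 3.53%, 3.47% and 3.36%, and PD800 cells of 1000 to 2176, 2177 to 3301 and 3301 to 8770 UMIs had 4.11%, 4.06% and 4.13%.

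By complex, the median share per cell went from 1.08% to 1.28% for complex I, from 0.326% to 0.364% for complex III, from 0.835% to 1.09% for complex IV and from 1.11% to 1.26% for complex V, whereas complex II was at 0.0686% and 0.0612%, or 1 and 2 UMIs a cell. Spearman rho between the shares of complexes I and IV was 0.10 in PD100 and 0.12 in PD800, and between complexes I and V 0.04 and 0.08, over 814 and 900 cells of 1 library each. Between the share of all members and that of mitochondrially encoded genes rho was 0.13 and 0.10. With the share of cytosolic ribosomal protein genes it was 0.12 in PD100 and 0.28 in PD800, the largest of these values. At these counts per cell, and with 1 library each, such values are no finding.

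**Figure D4:**
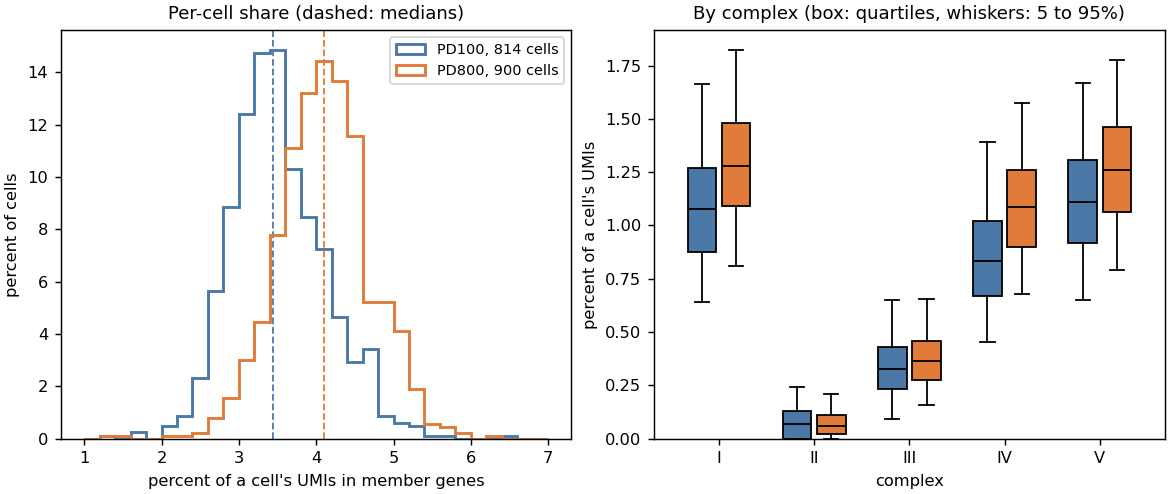
Left, distribution over cells (y axis, percent of cells) of the percent of a cell's UMIs in member genes (x axis) for PD100 (814 cells) and PD800 (900 cells), with dashed medians at 3.44% and 4.10%. Right, the same share by complex, with boxes for quartiles and whiskers from the 5th to the 95th percentile, PD100 at left in each pair; complex IV goes from 0.835% to 1.09% and complex II stays under 0.1% at the median.

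Endoderm markers differed between the cultures, so members were compared by them within PD100. They were at 35061 CPM (34399 to 35732) in the 111 PD100 cells with 3 or more endoderm marker UMIs and at 34818 CPM (34522 to 35115) in the other 703, with overlapping intervals. Complex IV was the exception, at 8896 CPM (8564 to 9237) in the former and 8397 CPM (8252 to 8544) in the latter, but without cells of this kind in both libraries its log2 ratio between cultures was 0.38. Uqcrb was at 78.8 and 90.7 CPM and Cox7b at 374 and 363 CPM in these cells. Without cells of this kind in both libraries the members' summed log2 ratio was 0.24. Of the 13 endoderm markers, Gata6 and Srgn were at 0 UMIs in PD800, and Sox17 and Gata4 at 2 each.

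The mitochondrially encoded partners differed far more than the nuclear members. The 13 protein genes of mitochondrial DNA summed to 12408 CPM in PD100 and 45084 CPM in PD800, a log2 ratio of 1.86 (1.84 to 1.88), and all 12 with 50 or more UMIs were above 0. By complex their log2 ratios were 2.21 for complex I, 2.15 for complex III (mt-Cytb alone), 1.27 for complex IV and 2.25 for complex V. Nuclear genes therefore supplied a smaller part of each complex's UMIs in PD800. For complex I the nuclear share was 82.1% in PD100 (81.6% to 82.6%) and 54.3% in PD800 (54.0% to 54.7%). It was 60.9% and 27.7% for complex III without Cyc1, 60.7% and 45.4% for complex IV, and 82.7% and 53.1% for complex V.

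Genes that work beside the chain are to be read against the 33.4% of all genes that lay above 0. Of 9 genes of cytochrome c and partner enzymes, 4 lay above 0, with Cycs, cytochrome c itself, at 665 and 1000 UMIs (0.09, -0.05 to 0.23), Cyc1, the haem subunit of complex III, at 893 and 531 CPM (-0.75, -0.85 to -0.64), and Ndufab1 at 438 and 686 CPM (0.65, 0.53 to 0.77). Coenzyme Q synthesis had 2 of 9 genes above 0 (median -0.14). Complex I assembly factors had 8 of 13 above 0 (median 0.28), from Ndufaf7 at -1.92 to Ndufaf4 at 1.00. Assembly factors of the other complexes had 16 of 32 above 0 (median -0.02), from Lrpprc at -1.75 to Cmc1 at 1.59.

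The TCA cycle, which feeds the chain, had 14 of 16 genes below 0 (median -0.58), and its summed log2 ratio was -0.39 (-0.44 to -0.33). Its lowest gene was Pdhb of the pyruvate dehydrogenase complex (410 and 179 UMIs, -1.69) and its highest Dlst (33 and 72 UMIs, 0.63). Glycolysis genes were spread from Aldoc at -1.93 to Ldhb at 2.16 (421 and 2654 UMIs), with 7 of 16 above 0 and a median of -0.25. Carriers and outer membrane pores had 1 of 8 genes above 0 (median -0.36), mitochondrial import 7 of 21 (33.3%, the share of all genes, with a median of -0.34) and cristae organisation 4 of 9 (median -0.21). Relative to the shift, the medians of glycolysis (0.09), cristae organisation (0.13), coenzyme Q synthesis (0.20) and the assembly factors of complexes II to V (0.32) were above 0, and that of the TCA cycle (-0.23) was not.

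Mitochondrial ribosomal proteins, a nuclear set of comparable size, had a median of -0.21 over 76 genes with 23 above 0 (0.13 relative to the shift), from Mrps31 at -1.08 to Mrpl9 at 2.16. Cytosolic ribosomal proteins, which like many members are short and abundant, had a median of 0.15 over 82 genes with 47 above 0. Relative to the shift this median was 0.49, and 65 of the 82 lay above the shift, against 66 of 78 members. By that measure 19 were 2-fold or more higher and 0 lower, against 18 and 0 of the members. Genes for expression of mitochondrial DNA had a median of -0.66 with 4 of 10 above 0, while their summed log2 ratio was 0.49. Among them Tfam, which packages mitochondrial DNA, was at 143 and 93 UMIs (-1.12), and Slirp, which binds mitochondrial messenger RNA, at 262 and 1200 UMIs (1.70). Of the regulators, Nrf1 (86 and 97 UMIs, -0.33, -0.76 to 0.11) and Gabpa (45 and 49 UMIs, -0.38, -0.99 to 0.24) stood at the shift with intervals that hold 0, and Myc was the lowest (122 and 41 UMIs, -2.07). Yy1 was at 102 and 196 UMIs (0.44), and Esrra, with 10 and 22 UMIs, was too low to rank.

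**Figure D5:**
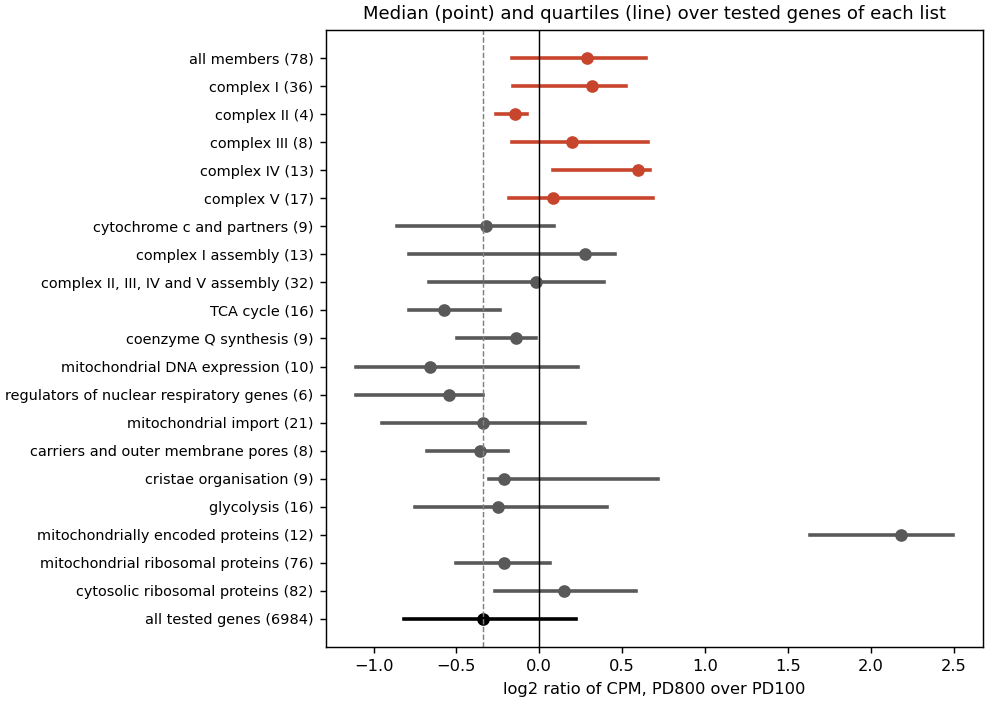
Median (point) and quartiles (line) of the log2 ratio (PD800 over PD100, x axis) over genes with 50 or more UMIs in the members and complexes (red), related lists (grey) and all genes (black), with the number of genes in brackets. The members' median is 0.29 against -0.34 for all genes and -0.58 for the TCA cycle, and the mitochondrially encoded genes stand apart at 2.19.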

How the data were processed

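The authors deposited 1 table per library of raw UMI counts, whole numbers per cell barcode and gene, made with the inDrops pipeline on a transcriptome of mm10. The deposited counts were not normalised, and the submitters' processing notes also name Scanpy. The annotation release is not given in the sources used here. UMIs mark mainly the 3′ end of transcripts and were not scaled by length.

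Cells with 1000 or more UMIs and at most 20% mitochondrial UMIs were kept, which removed 477 barcodes from PD100 and 766 from PD800. The paper states the same limits for total reads and mitochondrial content but kept fewer cells of each culture. Scrublet (in Scanpy 1.11.5, expected rate 5%) called 9 PD100 and 25 PD800 cells doublets, which were kept. UMIs of the cells kept were summed for each library and scaled to CPM. Intervals were exact Poisson for levels, exact conditional (Clopper-Pearson) for ratios and exact binomial for shares, at 95%. They cover counting error only, and no test was run because there is 1 library per group. Genes with 50 or more UMIs over both libraries (6984) formed the background. Gene positions and lengths came from GENCODE M21 (GRCm38), and promoters from RefSeq. Near copies were genes sharing 50% or more of the 31-base words in the last 500 bases of a transcript. Calculations used Python 3.11.15, NumPy 2.4.6, SciPy 1.17.1 and pandas 2.3.3 and were tested on simulated data.

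The members and lists were chosen with earlier results of these data known. Values in full were set for the 2 highest and 2 lowest members of each complex (1 and 1 for complex II), a fixed list of catalytic and core genes and the isoform sets, and, from each related list, its highest and lowest gene and a few fixed genes. The values of 1 member are not reported here. Further members were named after their values had been seen. The 9 alternatives were median-of-ratios scaling, totals without mitochondrial genes, cells of 2000 or more UMIs, no cell filter, leaving out cells with endoderm markers or called doublets, equal weight per cell, and minima of 20 and 200 UMIs per gene. Adding Cyc1 and Ndufab1 was chosen after seeing the data.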

Additional observations from a re-analysis of the deposited data

Results flagged for a closer look

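The barcodes left out by the cell filter held member transcripts, and no comparison above uses these barcodes. The members' level there was far over that of 3 counts (the floor), which a sum over many genes was bound to pass. In the 477 PD100 barcodes left out, members were at 36536 CPM (35785 to 37298, 9017 of 246800 UMIs, floor 12.2 CPM). In the 766 PD800 barcodes left out, they were at 39581 CPM (39007 to 40161, 18143 of 458381 UMIs, floor 6.54 CPM). The log2 ratio there was 0.12 (0.08 to 0.15), smaller than the 0.24 in the cells kept. Complex IV had 0.20 (0.12 to 0.27) and complex I 0.15 (0.09 to 0.22), whereas the intervals of complexes II, III and V held 0.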

How the results depend on the processing

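No alternative has a test, since each group is 1 library. With the genes taken by symbol, complex II was the only complex whose sum changed direction; subgroups with sums between -0.34 and 0 turned with it (Q module 0.16, complex II catalytic genes 0.27, complex III core 0.14, Uqcrfs1 0.03, F1 head 0.25, c-ring 0.31 and Atp5s 0.29 relative to the shift). Adding Cyc1, chosen after seeing the data, took complex III to -0.0155, and adding Cyc1 and Ndufab1 left all members at 0.23. Under median-of-ratios scaling, which moves the median of all genes from -0.34 to 0, the summed log2 ratios were 0.58 for all members and 0.61, 0.16, 0.47, 0.71 and 0.51 for complexes I to V. The median member was then 0.63, with 18 members 2-fold or more higher and 0 lower. Of the 31 genes set for full values, this scaling turned the sign of 7 (Sdha, Uqcrfs1, Ndufs1, Sdhb, Atp5a1, Atp5g1 and Atp5g2), and having no cell filter turned Sdha. Totals without mitochondrially encoded genes gave 0.29 for all members, 0.31, 0.18, 0.42 and 0.22 for complexes I, III, IV and V, and shares per cell of 3.50% and 4.30%. Cells of 2000 or more UMIs gave 0.26 for all members, 0.30 and 0.42 for complexes I and IV, 2 members 2-fold lower and a PD100 share of 3.41%. Without a cell filter the members were at 0.22 and the PD800 share at 4.05%. Equal weight per cell gave 0.22, 0.24 and 0.34 for all members and complexes I and IV. Members above the median of all genes numbered 62 to 66 in every setting. No paired analysis was possible because there is 1 library per group. Counting error limits the genes under 50 UMIs, and differences between cultures, libraries and capture runs cannot be told apart from the passage.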
